A study of Rattus norvegicus with 2 samples.

Results

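Histone lactylation is a mark in which a lactyl group made from lactate is added to lysines of histone tails, and it is generally found in active chromatin. The series title names lactylation of lysine 18 of histone H3 (H3K18la), and the peaks described here come from 1 ChIP-seq library of rat myocardium. They are the 1857 peaks whose centre the authors' annotation places in the first intron of a transcript and within 1000 bp of a transcription start site (TSS). They make up 6.47% of the 28706 peaks of the library, lie at 1803 TSSs of 1789 named genes, and together cover 1.00 Mb of the rat build rn6.

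At an active gene the TSS usually lies in a stretch poor in nucleosomes, and the first nucleosomes downstream of it often carry marks of active chromatin. The first exon is commonly short, so these nucleosomes can lie in the first intron, which is also known to hold regulatory sequence. A class called from the peak centre alone therefore splits a shared neighbourhood into promoter, exon and intron peaks.

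The study used male Wistar rats with constriction of the abdominal aorta, an operation that loads the heart with pressure. Both samples with labels here are myocardium of this model, a ChIP library and an input library, each numbered replicate 3. The labels give the antibody by vendor and catalogue number, so its target is taken from the title, and they do not state the age or number of animals or any vagal stimulation. With 1 ChIP library and no values from the input, there is no comparison between groups and no replicate error; no p-value was computed, peaks and genes are not replicates, and the intervals below are 95% intervals of counting error alone. By gene list, 26 of 33 sarcomere and Z-disc genes had a peak of any class. So did 18 of 20 endothelial, 7 of 13 smooth muscle and pericyte and 6 of 20 fibroblast genes. Peaks stood at 3 of 24 immune cell, 3 of 18 hepatocyte and 2 of 16 brain genes, and at 27.1% of all 23154 protein-coding genes. The lists were chosen with earlier results of the same library known, so these shares describe the library and do not test its tissue. The part of gene length in them was not tested.

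The promoters of the 6 strongest of these peaks that reach across the TSS and whose gene has a single RefSeq promoter entry are printed first, as examples of the start sites that RefSeq gives for such genes. Each runs 5′ to 3′ on the gene's strand, from 250 bases before to 50 bases after the RefSeq start of build GRCr8, so that base 251 is the first transcribed. Capitals mark every match, on either strand, to 7 motifs. They are the GC box, spelled GGGCGG; the CCAAT box; the TATA box, spelled TATAAA; the core bound by ETS factors, spelled CGGAAG; the E-box, spelled CACGTG; the half-site of the cyclic AMP response element, spelled TGACGT; and the AP-1 motif, spelled TGAGTCA. Matches may overlap, as those of the GC box and the ETS core do at Zfp36. Whether the RefSeq start is the start that the rn6 annotation used was not tested.
Tns2 (chr7:135112309-135112608, GRCr8, plus strand): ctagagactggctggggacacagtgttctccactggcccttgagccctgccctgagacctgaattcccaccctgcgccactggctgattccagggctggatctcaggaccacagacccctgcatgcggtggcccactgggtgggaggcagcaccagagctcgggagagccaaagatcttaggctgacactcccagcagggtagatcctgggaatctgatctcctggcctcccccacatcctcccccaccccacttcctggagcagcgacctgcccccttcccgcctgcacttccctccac
Cdkn1a (chr20:7150682-7150981, GRCr8, plus strand): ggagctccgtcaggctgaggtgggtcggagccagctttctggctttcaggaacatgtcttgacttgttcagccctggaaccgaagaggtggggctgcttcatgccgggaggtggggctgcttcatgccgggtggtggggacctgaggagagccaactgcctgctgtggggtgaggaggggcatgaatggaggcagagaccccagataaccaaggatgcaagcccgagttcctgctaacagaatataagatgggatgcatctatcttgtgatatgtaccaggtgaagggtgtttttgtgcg
Zfp36 (chr1:92799059-92799358, GRCr8, minus strand): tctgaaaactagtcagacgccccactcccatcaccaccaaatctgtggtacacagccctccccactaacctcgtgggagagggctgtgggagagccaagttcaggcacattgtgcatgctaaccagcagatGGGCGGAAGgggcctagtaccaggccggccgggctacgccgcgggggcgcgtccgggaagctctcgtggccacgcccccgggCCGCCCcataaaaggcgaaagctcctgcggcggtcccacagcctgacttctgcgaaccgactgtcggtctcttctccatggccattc
Bnip2 (chr8:79521125-79521424, GRCr8, plus strand): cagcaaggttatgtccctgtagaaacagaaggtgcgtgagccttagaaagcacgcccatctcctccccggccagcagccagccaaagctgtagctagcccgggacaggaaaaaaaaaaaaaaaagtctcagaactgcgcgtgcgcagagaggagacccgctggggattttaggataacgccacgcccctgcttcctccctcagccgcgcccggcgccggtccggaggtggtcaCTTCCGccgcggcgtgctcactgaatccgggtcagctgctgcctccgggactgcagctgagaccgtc
Ifi27 (chr6:128355062-128355361, GRCr8, plus strand): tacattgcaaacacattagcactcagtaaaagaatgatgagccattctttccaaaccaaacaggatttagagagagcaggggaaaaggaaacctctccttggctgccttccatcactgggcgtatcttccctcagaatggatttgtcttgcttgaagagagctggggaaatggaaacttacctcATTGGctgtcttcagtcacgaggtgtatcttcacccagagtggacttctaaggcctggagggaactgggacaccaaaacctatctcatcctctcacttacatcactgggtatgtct
Maff (chr7:112792537-112792836, GRCr8, plus strand): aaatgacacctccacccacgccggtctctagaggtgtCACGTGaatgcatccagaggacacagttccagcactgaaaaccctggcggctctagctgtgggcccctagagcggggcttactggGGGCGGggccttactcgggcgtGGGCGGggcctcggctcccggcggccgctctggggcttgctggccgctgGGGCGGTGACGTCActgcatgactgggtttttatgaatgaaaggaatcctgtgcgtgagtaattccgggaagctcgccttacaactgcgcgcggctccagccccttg

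These promoters differ widely in CpG content, a feature by which promoters are commonly grouped. Bnip2 had 23 CpG dinucleotides in its 300 bases (0.82 of the number its C and G content predicts), Maff 22 (0.73) and Zfp36 21 (0.70). Cdkn1a had 7 (0.32), Tns2 5 (0.17) and Ifi27 2 (0.12). Of the 6, only Maff held an E-box or the cyclic AMP half-site, with 1 and 2 matches, and it held 3 GC boxes. The 2 half-site matches overlap, 1 on each strand, in the single stretch TGACGTCA. Zfp36 held 2 GC boxes and 1 ETS core, Bnip2 1 ETS core and Ifi27 1 CCAAT box. Tns2 and Cdkn1a had no match to any of the 7 motifs in these 300 bases.

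The 12 strongest of the intron 1 peaks near a TSS had fold enrichments from 8.33 to 11.1. Fold enrichment is the authors' value per peak, the signal over the caller's local background. Tns2, which encodes tensin 2, an adaptor of focal adhesions, led at 11.1-fold (chromosome 7, 143704966 to 143710456, rn6), with a called interval of 5491 bp. Cdkn1a, the cell cycle inhibitor p21, had 9.93-fold (chromosome 20, 6351395 to 6353231). Zfp36, tristetraprolin, which destabilises AU-rich messenger RNAs, had 9.85-fold (chromosome 1, 85378381 to 85382430). These 3 peaks were also wide, at 5491, 1837 and 4050 bp.

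Bnip2, a BCL2-interacting protein, had 9.76-fold within only 604 bp (chromosome 8, 76400295 to 76400898). The interferon-inducible gene Ifi27 had 9.61-fold (chromosome 6, 127327943 to 127328942) and Maff, a small MAF transcription factor, 9.32-fold (chromosome 7, 120580298 to 120582354). Cdc42ep4, an effector of the GTPase Cdc42, had 9.30-fold (chromosome 10, 102267917 to 102269403). Ripor1 had 9.25-fold (chromosome 19, 37576049 to 37576862). At each of the genes from Tns2 to Ripor1 the called interval reached across the TSS.

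Ets1, a transcription factor prominent in endothelium, had 9.06-fold with its centre 912 bp downstream (chromosome 8, 33816525 to 33818071). Smad1, which carries bone morphogenetic protein signals to the nucleus, had 8.59-fold (chromosome 19, 32188153 to 32189250). The secreted metalloprotease gene Adamts12 (chromosome 2, 61039333 to 61040667) and the actin-bundling plastin gene Pls3 (chromosome X, 119030718 to 119031283) both stood at exactly 8.33-fold with the same −log10 q of 11.6. Such ties were common, since the 1857 peaks held 527 distinct values of fold enrichment. The weakest of the peaks were at Scaf11 and Pptc7, both 2.31-fold, and at Fam111a, 2.04-fold.

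Position was fixed by the rule and by the order in which the annotation assigns classes, and is given as a description. Every centre lay downstream of its TSS, from 103 to 999 bp, with a median of 423 bp and quartiles of 309 and 595 bp. The bin from 300 to 399 bp was the fullest, with 397 peaks (21.4%), and 1245 peaks (67.0%) lay from 200 to 599 bp. From 600 bp on the bins held 129, 126, 109 and 92 peaks. The peaks made up 55.8% of the 3328 peaks of the library with a centre up to 1000 bp downstream of a TSS.

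Just inside the limit stood the peaks of Zc3h7b (999 bp, 4.73-fold), Gabpb1 (995 bp, 4.18-fold) and the unnamed long noncoding model AABR07027431.1 (994 bp, 4.66-fold). Just outside stood Hip1r (1001 bp, 3.86-fold), Fgd5 (1003 bp, 4.79-fold) and Stc1 (1003 bp, 3.99-fold). The class label rests on the transcript that the annotation chose: it was the transcript of the nearest TSS in 1679 peaks and another in 178. A second, detailed annotation also placed 1819 of the peaks in a first intron, and 38 elsewhere.

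The summit, the point of highest signal, needs the gene's strand, which the annotation does not give. Strand and TSS could be solved where at least 2 peaks named the same transcript, since their positions and signed distances then fit a single strand. All 4806 such TSSs had a single solution within 1 bp. This placed 1130 of the intron 1 peaks, which were stronger and wider than the 727 that could not be placed (median 4.27-fold and 458 bp, against 4.05-fold and 370 bp).

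Summits of the placed peaks lay a median of 410 bp downstream of the TSS, with quartiles of 306 and 641 bp, and 594 of 1130 (52.6%) stood from 200 to 499 bp. The rule set the centre and not the summit, and 22 summits (1.95%) lay upstream of the TSS and 35 more than 1000 bp downstream. The upstream edge of the interval had a median of 198 bp downstream of the TSS and the downstream edge one of 730 bp. Among exon peaks within 1000 bp, 341 of which could be placed, the median summit was at 350 bp with quartiles of 214 and 524 bp. The 208 placed promoter-class peaks with a downstream centre had their median summit at 98.5 bp.

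**Figure D1:**
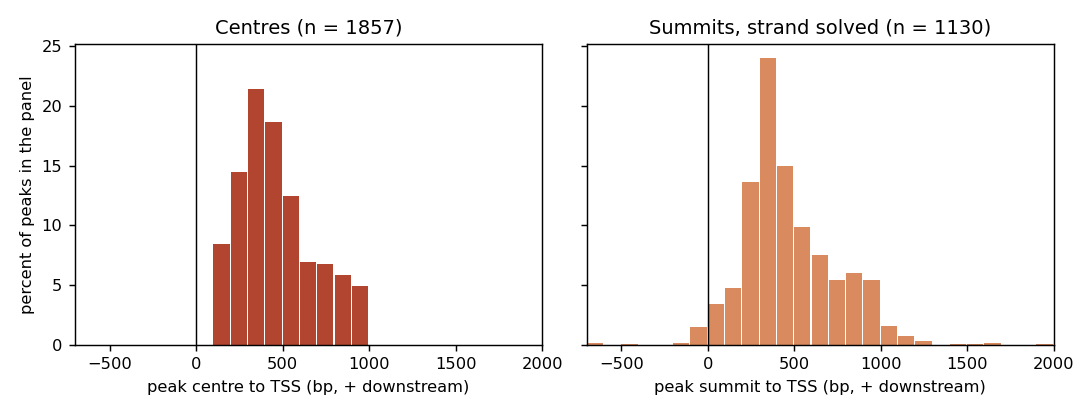
Histograms in 100 bp bins of the distance to the TSS, downstream positive, for the centres of all 1857 peaks (left) and the summits of the 1130 peaks with a solved strand (right), as percent of the peaks in each panel. The bin from 300 to 399 bp is the highest in both, with 21.4% of centres and 24.0% of summits.

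Most of the called intervals lay wholly downstream of the TSS. The TSS itself was covered by 386 of 1857 (20.8%, Wilson interval 19 to 22.7%), against 250 of 632 exon peaks within 1000 bp (39.6%, 35.8 to 43.4%) and 391 of 566 downstream promoter-class peaks (69.1%, 65.2 to 72.7%). The class is set by where the centre lies, and no intron 1 centre lay nearer to the TSS than 103 bp. The order of these shares is therefore in part fixed by the classes. The share moves with the position of the centre, and the share of intron 1 peaks that covered the TSS was 79.5% at 100 to 199 bp and 3.26% at 900 to 999 bp. The 386 that covered it were wider (median 797 bp, against 356 bp for the other 1471) and stronger (4.77-fold, against 4.08-fold). A fold enrichment of at least 6 was reached by 22.0% of those covering the TSS and 5.30% of those that did not. Width and fold enrichment go together across these peaks (Spearman 0.392, n = 1857 peaks of the same library), and their part in this difference was not tested.

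The intron 1 peaks near a TSS were slightly wider than other peaks and more often strong, while the intervals of the median strengths overlapped. Their median fold enrichment was 4.19 (quartiles 3.61 and 4.96, interval of the median 4.11 to 4.23), against 4.12 (3.62 and 4.79, 4.10 to 4.14) for the other 26849 peaks. A fold enrichment of at least 6 was reached by 163 of 1857 (8.78%, 7.57 to 10.2%), against 1648 of 26849 other peaks (6.14%, 5.86 to 6.43%) and 6.31% of all peaks. A −log10 q of at least 5 was reached by 790 (42.5%, 40.3 to 44.8%), against 31.2% of other peaks (30.7 to 31.8%) and 32.0% of all peaks. Their median width was 422 bp (interval 403 to 438 bp), against 372 bp (369 to 376 bp) for other peaks. Among peaks with −log10 q of at least 5 the order of both medians turned, to 5.11-fold and 594 bp, against 5.22-fold and 609 bp for other peaks at that threshold.

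Set beside classes of the same neighbourhood, they differed little in strength, and they stood apart more from intron 1 peaks farther away. Exon peaks within 1000 bp had a median of 4.16-fold and 447 bp, and 9.02% of them reached 6-fold (7.03 to 11.5%). The 119 peaks in later introns within 1000 bp had 4.19-fold and 429 bp, and 9.24% reached 6-fold (5.24 to 15.8%). Promoter-class peaks had 4.09-fold, with 7.77% of 566 downstream peaks (5.84 to 10.3%) and 7.05% of 2240 upstream peaks (6.07 to 8.19%) at 6-fold. Median width was 415 bp in the downstream ones (387 to 443 bp) and 380.5 bp in the upstream ones (365 to 398 bp). The upstream interval lies below the 403 to 438 bp of the intron 1 peaks near a TSS. In the 4419 intron 1 peaks beyond 1000 bp the median was 4.08-fold (interval 4.05 to 4.10) and 361 bp (353 to 370 bp), and 4.80% reached 6-fold (4.21 to 5.47%). Those intervals do not overlap with the intervals of the intron 1 peaks near a TSS.

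**Figure D2:**
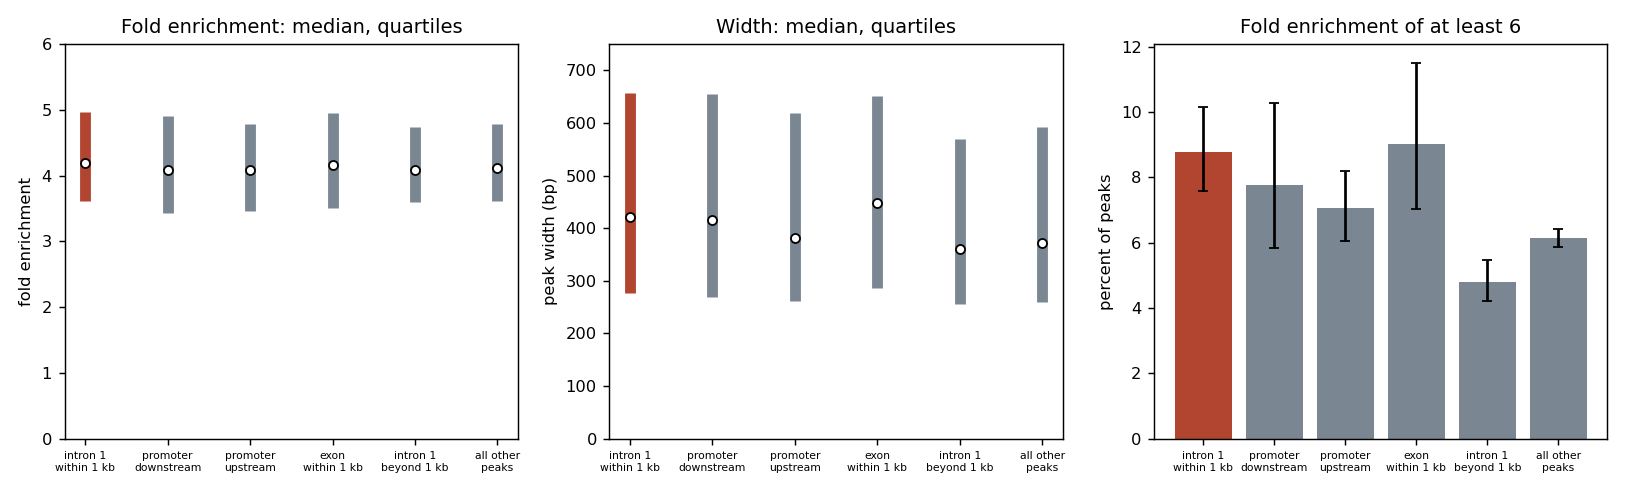
Fold enrichment (left) and width in bp (middle) as medians (points) with quartiles (bars), and the percent of peaks with fold enrichment of at least 6 with Wilson 95% intervals (right), for intron 1 peaks within 1 kb of a TSS and 5 other sets of peaks. The medians of fold enrichment lie from 4.08 to 4.19, while the share at 6-fold is 8.78% in intron 1 peaks within 1 kb and 4.80% in those beyond.

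Within the set, strength hardly varied with distance or gene structure. The median fold enrichment of the 9 bins of 100 bp lay from 4.08 to 4.23, and Spearman's correlation of fold enrichment with distance was -0.0124 across the 1857 peaks. Transcripts with a single intron held 137 of the peaks, with a median of 4.26-fold, and those with 20 or more introns held 229, with 4.10-fold. Zfp36 and Cdc42ep4 were among the single-intron genes.

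A promoter-class peak stood on the same TSS in 453 of 1803 cases (25.1%, 23.2 to 27.2%), and at 727 TSSs (40.3%) the intron 1 peak was the sole peak of any class. Like shares for TSSs of other peak classes are not given here. Where an intron 1 and a promoter-class peak were both present, the intron 1 peak was stronger at 240 TSSs, the promoter-class peak at 210, and they were equal at 3. The median of the differences, intron 1 minus promoter class, was 0.108-fold units (quartiles -0.814 and 1.04). The strengths of the paired peaks were only loosely related (Spearman 0.0830, n = 453 TSSs of the same library). Intron 1 peaks with a promoter-class partner had a median of 4.28-fold (n = 465), against 4.16-fold without a partner (n = 1392).

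In 454 pairs the promoter-class peak was centred upstream, at a median distance of -518 bp, while the intron 1 peak of the pair had a median of 465 bp. The gap between the intervals had a median of 450 bp (quartiles 245 and 669 bp), and it contained the TSS in 298 of the 454 pairs (65.6%). These pairs were chosen with 1 centre on each side of the TSS, so a gap around the TSS is in part fixed by that choice. The shortest gap was 151 bp, which is also the shortest between any 2 neighbouring peaks of the library, so closer signals are not listed as separate peaks. A gap is a stretch with no call at this depth and threshold.

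**Figure D3:**
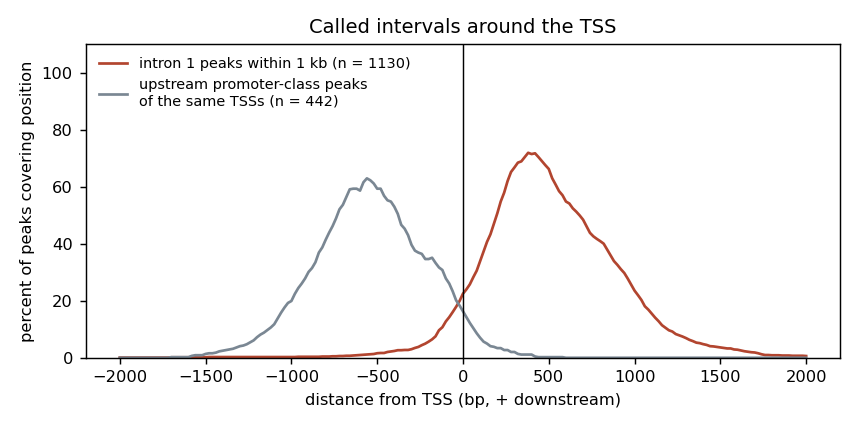
Percent of called intervals (y axis) that cover each position between -2000 and 2000 bp from the TSS (x axis, downstream positive), for 1130 intron 1 peaks and the 442 upstream promoter-class peaks at TSSs of intron 1 peaks whose strand was solved. The intron 1 curve is highest at 380 bp downstream (71.9%) and the promoter-class curve at 560 bp upstream (62.9%, at -560 bp), and at the TSS they stand at 22.5% and 16.3%. All intron 1 centres lay downstream and the promoter-class peaks were chosen with centres upstream, so the curves separate in part by choice.

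The 5 TSSs with the highest summed enrichment show both kinds of balance. Ifi27 had 9.61-fold in intron 1 and 5.0-fold at the promoter 852 bp upstream (distance -852 bp). Cdc42ep4 had 9.30-fold and 4.77-fold, again with the intron 1 peak higher. Hdac7, a class IIa histone deacetylase expressed in endothelium, had 7.46-fold and 6.90-fold. The order turned at the elongation factor gene Ell2, with 6.36-fold in intron 1 and 7.32-fold at the promoter, and at the kinase-binding gene Sh3bp5, with 6.45-fold and 7.05-fold.

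**Figure D4:**
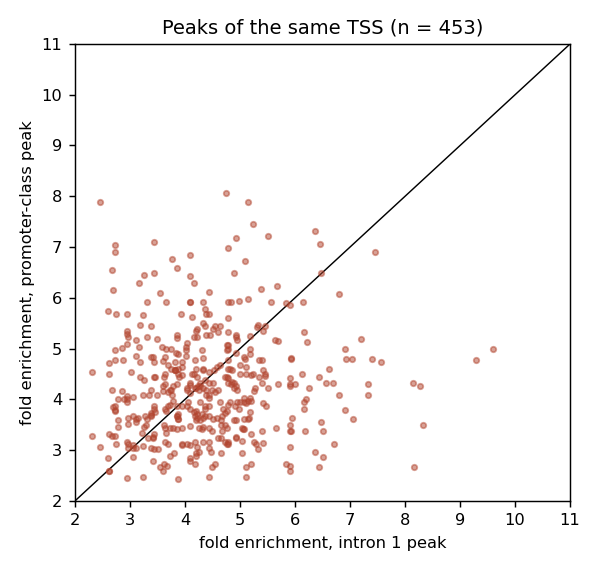
Fold enrichment of the strongest intron 1 peak (x axis) and the strongest promoter-class peak (y axis) at each of 453 TSSs that had both, with the line of equal values. The points spread on both sides of the line, 240 below it (intron 1 higher) and 210 above.

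Counted by gene, 1723 of the 1789 genes had 1 intron 1 peak near a TSS, 65 had 2 and Plec had 4. For 610 genes (34.1%, 31.9 to 36.3%) it was the only peak of the library, against 3644 of all 8094 names with a peak (45.0%). In the 1179 genes with further peaks, the intron 1 peak was the strongest in 402 (34.1%, 31.4 to 36.9%). Intron 1 peaks near a TSS made up 1247 of the 7077 peaks of these genes (17.6%). The share that equal chances for every peak of a gene would give was not computed.

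Of the 5 genes named here for having several such peaks, Plec, Gimap5 and Lims2 had them at different TSSs. Plec, the cytoskeletal linker plectin, had 4 peaks at 3 TSSs, from 2.86-fold to 4.76-fold, all placed by the annotation in the first intron of a transcript other than that of the TSS. Gimap5, a GTPase known from lymphocytes, had 7.20-fold and 3.45-fold at 2 TSSs, and Lims2, an adaptor of integrin adhesions, had 5.66-fold and 7.01-fold at 2. Tmsb4x, the actin-binding thymosin β4 on the X chromosome, had 6.25-fold at 291 bp and 3.05-fold at 987 bp of the same TSS. Agpat4, a lipid-synthesis acyltransferase, had 6.20-fold at 421 bp and 4.14-fold at 927 bp.

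The widest peaks after that of Tns2 were at Adamts9, a secreted metalloprotease gene, with 4396 bp and 7.26-fold (chromosome 4, 124855351 to 124859746), and at Zfp36. They were followed by Ubtf, a factor of ribosomal RNA transcription, with 3368 bp and 6.14-fold (chromosome 10, 90263094 to 90266461), and by the unnamed long noncoding model AABR07016578.3, with 3024 bp and 7.39-fold. At both Adamts9 and AABR07016578.3 the summit lay upstream of the TSS, at -613 bp.

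Nearly all the peaks belonged to protein-coding genes, 1792 of 1857 (96.5%, against 77.6% of all peaks). Long intergenic noncoding RNA models held 60 (3.23%, against 9.43% of all peaks), with the strongest at AABR07012475.2 (7.69-fold), and a median of 4.37-fold. The strongest of 3 antisense models was AABR07030527.1 at 4.61-fold, and of 2 processed transcripts a transcript of Arid5b at 5.40-fold. On the X chromosome 28 of 234 peaks were of this kind (12.0%, 8.41 to 16.8%), against 6.47% of all peaks of the library. Shares on the autosomes ran from 4.97% (chromosome 18) to 8.35% (chromosome 20, 6.65 to 10.4%), and the last interval overlaps that of X. The shares of other near classes on X are not given here.

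Of 23154 protein-coding genes in the gene table, 1691 (7.30%) had an intron 1 peak near a TSS, and of the 3954 with any peak within 1000 bp of a TSS, 42.8% did. These shares are the background for 21 gene lists, whose members and shares were described with earlier results of the same library known. The second share asks which class the near peaks of a list fall into, and depends on exon and intron lengths as well as on the mark. Its Clopper-Pearson interval lay above 42.8% in 2 lists, glycolysis and oxidative phosphorylation, both with a lower end of 43.4%. In 1 list, immediate-early and stress-induced regulators, it lay below. In every other list with a near peak the interval held 42.8%.

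**Figure D5:**
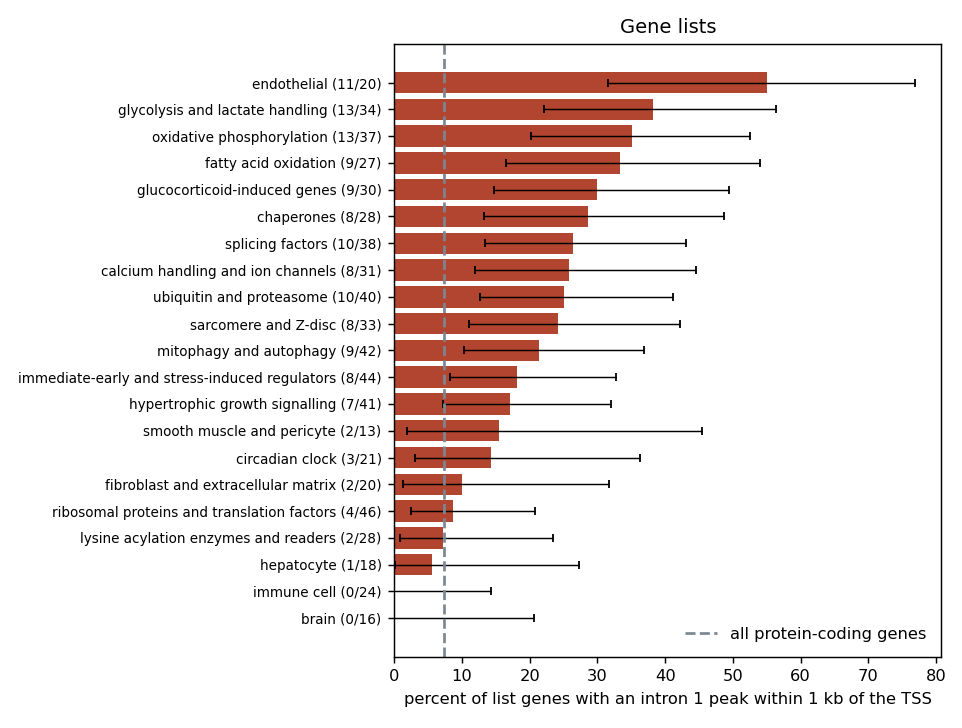
Percent of the genes of each of 21 lists that had an intron 1 peak within 1 kb of a TSS (bars), with Clopper-Pearson 95% intervals, the counts beside each name, and the share of all protein-coding genes (7.30%, dashed line). Endothelial genes stand highest at 55.0%. Immune cell and brain genes have none, with intervals that hold the share of all protein-coding genes.

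Genes of fuel use and respiration often carried such a peak, and mostly a modest one. Glycolysis and lactate handling had it at 13 of 34 genes (38.2%, Clopper-Pearson interval 22.2 to 56.4%), which is 68.4% of the 19 with any near peak. The leading genes were Pdk4, a kinase that restrains pyruvate dehydrogenase, with 5.92-fold, Pdha1, a subunit of that enzyme, with 5.53-fold, and Bsg, the chaperone of lactate transporters, with 5.35-fold. No gene of this list reached 6-fold, and the median over the 13 was 4.03-fold. Eno1, Mpc1 and Pfkfb2 had a promoter-class peak and none of this kind.

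Oxidative phosphorylation had 13 of 37 genes (35.1%, 20.2 to 52.5%), again 68.4% of the 19 with a near peak. Their median of 3.17-fold was below the 4.19-fold of all such intron 1 peaks. Cox6c, a subunit of cytochrome c oxidase, had 5.70-fold, Atp5mc1, a subunit of the ATP synthase ring, 4.84-fold, and the complex I subunit Ndufv2 4.51-fold. Atp5f1c, Sdha and Cox4i1 had a promoter-class peak and no intron 1 peak near a TSS, at 8.10-fold, 4.55-fold and 3.72-fold.

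Fatty acid oxidation had 9 of 27 genes (33.3%, 16.5 to 54.0%). Etfa, part of the flavoprotein that accepts electrons during β-oxidation, had 2 peaks of 5.17-fold and 5.11-fold, Acadl, a long-chain acyl-CoA dehydrogenase, 4.49-fold, and Fabp3, the fatty acid binding protein of heart, 4.09-fold.

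Mitophagy and autophagy genes, the subject of the series title, had it at 9 of 42 (21.4%, 10.3 to 36.8%). These were 47.4% of the 19 with a near peak (24.4 to 71.1%), against 42.8% in the background. Only Map1lc3a reached 6-fold. Its homologue Map1lc3b, like it a ubiquitin-like protein of the autophagosome, had 2 such peaks, 5.69-fold at 886 bp and 4.75-fold at 349 bp of different TSSs. The mitophagy receptor gene Fundc1 had 5.93-fold. The receptor gene Bnip3, chosen after its values were seen, had 5.50-fold in intron 1 at 479 bp (chromosome 1, 211264198 to 211265167) besides its promoter-class peak. Vdac1, Sqstm1 and Atg3 had a promoter-class peak and none in intron 1 near the TSS, and 26 of the 42 genes had a peak of any class, against 27.1% of all protein-coding genes.

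Contractile and excitation genes were marked in part. Sarcomere and Z-disc genes had such a peak at 8 of 33 (24.2%, 11.1 to 42.3%), led by the Z-disc adaptor Pdlim5 with 5.45-fold, the actin-binding nexilin gene Nexn with 5.18-fold and the muscle LIM protein gene Csrp3 with 5.11-fold. Myoz2, Myom2 and Myh7 had a promoter-class peak and no intron 1 peak near a TSS. Calcium handling and ion channels had 8 of 31 genes (25.8%, 11.9 to 44.6%). Gja1, the connexin of ventricular gap junctions, had 5.0-fold, and Pln, phospholamban, the inhibitor of the calcium pump of the sarcoplasmic reticulum, 4.85-fold. The intervals at Gja1 and Pln reached across the TSS.

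Hypertrophic growth signalling had 7 of 41 genes (17.1%, 7.15 to 32.1%), led by the MAP kinases Mapk3 with 7.22-fold (chromosome 1, 198192638 to 198193658) and Mapk14 with 5.64-fold, and by Pik3r1, a regulatory subunit of PI3 kinase, with 5.19-fold. Gsk3b, Igf1r and Rcan2 had promoter-class peaks centred at the TSS, within -14 to 71 bp, and none in intron 1 within 1000 bp.

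Of 44 immediate-early and stress-induced regulators, 8 had an intron 1 peak near a TSS (18.2%, 8.19 to 32.7%, against 7.30% of all protein-coding genes). Peaks within 1000 bp of a TSS stood at 35 of the 44, so that the 8 were 22.9% of the genes with a near peak (10.4 to 40.1%), against 42.8% in the background. An upstream promoter-class peak stood at 26 of the 35 (74.3%, against 47.1% of all genes with a near peak) and an exon peak at 12 (34.3%, against 14.7%). Those in intron 1 were strong where present, at a median of 6.35-fold for those 8 genes. After Zfp36 and Maff came Csrnp1, a nuclear protein induced by axin, with 8.15-fold. Strong peaks of this list were not confined to intron 1. Ppp1r15a, Junb and Dusp5 had a promoter-class peak, at 10.7-fold, 8.07-fold and 7.99-fold, and none in intron 1 near a TSS.

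Circadian clock genes had such a peak at 3 of 21 (14.3%, 3.05 to 36.3%). These were 21.4% of the 14 clock genes with a near peak (4.66 to 50.8%), and 12 of the 14 had an upstream promoter-class peak. The 3 were the kinase gene Csnk1d with 5.21-fold, the output factor gene Dbp with 4.16-fold and Bmal1, a core activator of the clock, with 3.43-fold. Per3 had a promoter-class peak of 7.4-fold. Glucocorticoid-induced genes had 9 of 30 (30.0%, 14.7 to 49.4%). These were 45.0% of the 20 with a near peak (23.1 to 68.5%), against 42.8% in the background. Tsc22d3, the anti-inflammatory leucine zipper protein GILZ, had 6.21-fold after Cdkn1a, and Pdk4 had 5.92-fold. Sgk1, Foxo3 and Hif3a had a promoter-class peak, at 10.3-fold, 7.27-fold and 7.11-fold, and no intron 1 peak within 1000 bp.

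Among genes of protein and RNA homeostasis, chaperones had 8 of 28 (28.6%, 13.2 to 48.7%). Bag3, a co-chaperone that maintains the Z-disc, had 8.33-fold (chromosome 1, 199941211 to 199942128), the small heat shock protein gene Hspb7 6.10-fold and Hsp90aa1 5.93-fold. Ubiquitin and proteasome genes had 10 of 40 (25%, 12.7 to 41.2%), led by the proteasome subunits Psmc6 with 5.12-fold and Psma6 with 4.96-fold and the muscle ubiquitin ligase Trim63 with 5.07-fold. Splicing factors had 10 of 38 (26.3%, 13.4 to 43.1%), led by Sf3b1 with 5.92-fold, Hnrnpk with 5.51-fold and Hnrnph1 with 5.45-fold.

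Ribosomal proteins and translation factors had 4 of 46 (8.70%, 2.42 to 20.8%), near the 7.30% of all protein-coding genes. In a split made after the values were seen, 0 of 31 ribosomal protein genes had an intron 1 peak near a TSS, with an interval up to 11.2% that holds the background share. Of these 31, 5 had any peak within 1000 bp and 6 a peak anywhere. Of 15 translation factor genes, with the poly(A)-binding protein gene Pabpc1 counted among them, 4 had one: Eif1 with 8.0-fold, Eif4a1 with 6.86-fold, Eef1a2, the elongation factor of muscle and neurons, with 6.62-fold, and, outside the rule for named genes, Eif4g2 with 4.76-fold. Many ribosomal protein genes have near-identical pseudogenes, and how reads that map to several places were treated is not given in the sources used here, so counts for this family are uncertain. Lysine acylation enzymes and readers had 2 of 28 (7.14%, 0.877 to 23.5%), also near the 7.30% of all protein-coding genes. These were the reader Dpf2 with 3.43-fold and the deacylase Sirt5 with 3.11-fold.

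Turning to markers of cell types, 11 of 20 endothelial genes had such a peak (55.0%, 31.5 to 76.9%), the highest share of the 21 lists, and 6 of the 11 reached 6-fold. Any peak within 1000 bp of a TSS stood at 17 of the 20. The 11 were 64.7% of these (38.3 to 85.8%), an interval that holds the 42.8% of the background. An upstream promoter-class peak stood at 9 of the 17 (52.9%, against 47.1% of all genes with a near peak). After Ets1 came Egfl7, a secreted endothelial protein, with 7.0-fold (chromosome 3, 4034895 to 4036493) and Fli1, an ETS factor, with 6.56-fold (chromosome 8, 33660139 to 33661066). Fibroblast and extracellular matrix genes had 2 of 20, Timp3, a metalloprotease inhibitor, with 7.04-fold over 2817 bp, and Tgfb2 with 2.95-fold. Smooth muscle and pericyte genes had 2 of 13 (15.4%, 1.92 to 45.4%), Acta2, smooth muscle α-actin, with 5.08-fold and Mcam with 4.32-fold. Immune cell genes had 0 of 24 (interval up to 14.2%) and brain genes 0 of 16 (up to 20.6%). Hepatocyte genes had 1 of 18 (5.56%, 0.141 to 27.3%), the cytochrome P450 gene Cyp2e1 with 4.36-fold. Apart from the endothelial list, the intervals of all these cell type lists hold the 7.30% of all protein-coding genes. In tissue chromatin, more cells of a type and more mark per cell cannot be told apart.

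Promoters of the genes with an intron 1 peak near a TSS were rich in CpG, as were those of genes with a promoter-class peak. The RefSeq table held promoters for 1408 of the 1691 genes (83.3%), with 1520 windows of 300 bases. Their median ratio of observed to predicted CpG was 0.783 (quartiles 0.595 and 0.922), against 0.798 for genes with a promoter-class peak and no intron 1 peak near a TSS, 0.409 for protein-coding genes with no peak and 0.521 for all protein-coding genes. A ratio of at least 0.6 with at least 50% G and C was met by 72.6% of the windows, against 74.0%, 33.2% and 41.4% in the same order. By that measure Bnip2, Maff and Zfp36 above are on the side of most such genes, and Tns2, Cdkn1a and Ifi27 are not.

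Motifs were counted in the same windows. GGGCGG, on either strand as for all motifs here, was in 69.6% of the windows of genes with an intron 1 peak near a TSS, against 66.2% with a promoter-class peak and no such intron 1 peak, 34.9% with no peak and 33.1% of all 33469 windows of the table. CGGAAG was in 28.0%, against 33.5%, 17.6% and 16.6%. TATAAA was in 5.99%, against 6.23%, 15.0% and 14.2%. CCAAT was in 35.5%, against 35.0%, 38.9% and 37.5%. CACGTG was in 8.95%, against 9.60%, 6.49% and 6.42%. TGACGT was in 10.9%, against 13.8%, 8.04% and 7.94%, and TGAGTCA in 3.29%, against 4.61%, 4.17% and 4.63%. In the 21851 windows of all protein-coding genes, the set used above for CpG, GGGCGG was in 41.8%, CGGAAG in 19.8%, TATAAA in 13.0% and CCAAT in 38.0%. There CACGTG was in 7.02%, TGACGT in 8.78% and TGAGTCA in 4.12%. A match is a description of letters and not a binding site, and the part of base composition in these shares was not tested.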

How the data were processed

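ChIP-seq peaks of 1 library of myocardium from rats with aortic constriction were analysed; its input library had no values here. The submitters' processing notes name HOMER, MACS2, Bowtie2, deepTools, SAMtools, Trim Galore and FastQC, without versions, and build rn6. The header of the annotation names a call at q 0.05. The authors deposited for each peak a fold enrichment, which is a ratio over the caller's local background, with −log10 p and −log10 q as named in the headers. A score column, also deposited, equals 10 times −log10 q rounded down in every row and was not used. Peak names carry a single sample name, so peaks were taken as called on 1 library. Whether the input served as background is not given in the sources used here.

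The annotation and peak list were joined by peak name. Peaks were kept whose class starts with intron, names intron 1 and has an absolute TSS distance of at most 1000 bp. Distances run from the peak centre, and a TSS was taken as covered when the interval, taken as symmetric about its centre, reached it. Coordinates are 1-based. Medians have distribution-free 95% intervals from the binomial distribution, shares Wilson intervals, and list shares Clopper-Pearson intervals. Sequencing depth is unknown, as the files give no library totals. Intervals cover counting error only, since PCR duplicates could not be separated here. Calculations used Python 3.11.15, pandas 2.3.3, numpy 2.4.6 and scipy 1.17.1 and were tested on simulated peaks.

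Of the 1789 gene names, 1695 (94.7%) matched a symbol or synonym in a gene table of GRCr8, used for names alone. Promoter sequences are from RefSeq (GRCr8). The peaks and lists were chosen with earlier results of these data known. Genes named are the 12 strongest and 5 widest peaks, 3 on each side of the distance limit, the 3 weakest, the 5 genes with most such peaks, the 5 TSSs with the highest summed enrichment with a promoter-class peak, the strongest of each noncoding class, and up to 3 of each list with and without such a peak; its part on centres upstream of the TSS found none, and 1 gene that the rule names is not reported here. Alternatives were other windows, downstream centres alone, a stricter q, any intron, other fold thresholds and other definitions of a partner peak.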

Additional observations from a re-analysis of the deposited data

How the results depend on the processing

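Across 52 alternative values of 10 results, 30 stayed within the interval of the reported value, or within 1.5 times for the count of peaks. Of these, 7 come from keeping downstream centres alone, which changes nothing since no centre lay upstream. With a 500 bp window there were 1174 peaks, 28.8% covered the TSS, 21.5% of TSSs had a promoter-class partner and 4.83% of genes had a peak. With 2000 bp these last shares were 16.6% covering and 8.26% of genes. With −log10 q of at least 5 there were 790 peaks, with a median of 5.11-fold and 594 bp, of which 20.6% reached 6-fold and 31.9% covered the TSS; 13.4% of TSSs had a partner at that threshold and 3.18% of genes a peak. That threshold also reversed the difference from all other peaks in median fold enrichment (-0.111) and in median width (-15 bp), and it narrowed the difference in the share at 6-fold to 0.988 percentage points; the cause was not tested. Counting any intron gave 7.74% of genes. A fold threshold of 5 was reached by 23.3% and of 8 by 1.08%. Asking that the interval reach 100 bp upstream of the TSS left 11.5% covering it. A promoter-class peak under the same gene name stood at 32.4% of genes, and any other peak within 1000 bp at 28.3% of TSSs. The alternatives for the 3 differences from other peaks were chosen after seeing the data. No paired analysis was possible because 1 library has values. Absence of a peak means no call at this unknown depth.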
